A study of Homo sapiens with 6 samples.

Results

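*PPME1* and its neighbours are a run of 10 protein-coding genes on the long arm of chromosome 11, in the order *COA4*, *PAAF1*, *DNAJB13*, *UCP2*, *UCP3*, *C2CD3*, *PPME1*, *P4HA3*, *PGM2L1* and *POLD3*. They were taken by gene symbol from the 20347 genes of the deposited table, and all 10 were found. The run was chosen by position around *PPME1*, which was selected on its lower level in *SAMD1* KO than in control cells, so the differences between these groups are given below as a description, without a test. The libraries come from PaTu8988t, an established human pancreatic ductal adenocarcinoma (PDAC) cell line grown in 5% serum. There were 3 replicates of control cells, which carried a CRISPR vector with an unspecific guide, and 3 *SAMD1* KO clones, each grown from 1 edited and puromycin-selected cell. Clonal growth is therefore part of the KO group, and its effect cannot be told apart from that of the knockout. *SAMD1* itself was lower in each KO clone (874, 1082 and 825 normalized counts) than in the control replicates (2231, 2382 and 2299).

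The values are normalized counts, that is read counts divided by 1 size factor per library, so 1 read was worth between 0.864 and 1.15 normalized counts and libraries held from 35589477 to 45172216 reads. At this depth counting error is small for the abundant members, and the spread between 3 libraries a group sets how precise their values are. Of 6 epithelial markers 5 were detected and *KRT19* was listed at 0 in every library. The fibroblast genes *DCN* and *LUM* were also at 0, and of the 2 leukocyte markers *PTPRC* stayed at or below 2.698 normalized counts, while *CD68* was at 242 to 368. The leukocyte markers summed to between 355 and 369.8 normalized counts in control and between 244 and 328 in KO cells, and the 2 endothelial markers, *PECAM1* and *VWF*, to between 40.04 and 52.7 in control and between 29.4 and 72.0 in KO cells. The summed epithelial markers ran from 63389 to 66603 normalized counts in control and from 68662 to 110199 in KO cells, nearly all of it *KRT8* and *KRT18*. *KRT7*, *KRT18* and *SOX9* were higher in every clone, while the groups overlapped for *KRT8* and *EPCAM*. The 4 fibroblast markers summed to between 49.9 and 52.7 in control and between 15.3 and 41.5 in KO cells, nearly all of it *COL1A1*, and the part of these lists in the values below was not tested. In such bulk libraries, fewer cells that express a gene and less of its RNA per cell cannot be told apart.

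The products of this run act in several processes. PPME1 is the methylesterase that removes the methyl group from the C-terminal leucine of the catalytic subunit of protein phosphatase 2A (PP2A), the step that LCMT1 opposes, and this methylation governs which regulatory subunits PP2A holds. C2CD3 is a centriole protein needed for distal appendages and for cilia. UCP2 and UCP3 are carriers of the inner mitochondrial membrane, and COA4 helps to assemble cytochrome c oxidase. PAAF1 binds the ATPases of the proteasome, DNAJB13 is a co-chaperone of motile cilia and sperm tails, P4HA3 is a catalytic subunit of collagen prolyl 4-hydroxylase, PGM2L1 makes glucose 1,6-bisphosphate, and POLD3 is an accessory subunit of DNA polymerase delta. SAMD1 binds unmethylated CpG islands and prefers a GCGC motif, as known from earlier work.

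On GRCh38 (GENCODE 44) the run spans 796 kb from the start of *COA4* to the end of *POLD3*. *PPME1* (chromosome 11, 74171267 to 74254703, plus strand, 14 exons in its canonical transcript) and *C2CD3* (74012718 to 74171210, minus strand, 33 exons) start back to back, with 56 bases between their annotated extents. *UCP3* (74000277 to 74009085, minus strand, 7 exons) lies 3632 bases past the 3′ end of *C2CD3* on the same strand. At its other end *PPME1* overlaps *P4HA3* (74235801 to 74311640, minus strand, 13 exons) over 18903 bases on opposite strands. *COA4* (73872667 to 73876901, minus strand) and *PAAF1* (73876699 to 73931114, plus strand) overlap by 203 bases at their starts. The strand setting of the authors' counting is not given in the sources used here, so reads in these overlaps may be shared between the genes.

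The start regions below are RefSeq windows (GRCh38.p14) from 250 bases before to 50 bases after an annotated start, which were found for 8 of the 10 members and not for *P4HA3* and *POLD3*. That of *PPME1* is shown because it overlaps the window of *C2CD3*, and both genes were lower in every clone. That of *UCP3*, also lower in every clone, is shown for contrast, as are those of *PAAF1* and *UCP2*, which were not. Each is written 5′ to 3′ on the strand of the gene, with every GCGC in capitals, a motif that reads the same on both strands and can overlap with itself. The windows are *PPME1*, chr11:74171039-74171338 on the plus strand, *UCP3*, chr11:74009036-74009335 on the minus strand, *PAAF1*, chr11:73876749-73877048 on the plus strand, and *UCP2*, chr11:73982794-73983093 on the minus strand.
PPME1: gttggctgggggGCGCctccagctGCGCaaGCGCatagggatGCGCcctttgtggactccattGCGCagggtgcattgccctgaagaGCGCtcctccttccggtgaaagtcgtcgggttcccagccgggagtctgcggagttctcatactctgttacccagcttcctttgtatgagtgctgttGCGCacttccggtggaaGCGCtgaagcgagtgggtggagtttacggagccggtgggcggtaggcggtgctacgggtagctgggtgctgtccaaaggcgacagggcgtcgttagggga
UCP3: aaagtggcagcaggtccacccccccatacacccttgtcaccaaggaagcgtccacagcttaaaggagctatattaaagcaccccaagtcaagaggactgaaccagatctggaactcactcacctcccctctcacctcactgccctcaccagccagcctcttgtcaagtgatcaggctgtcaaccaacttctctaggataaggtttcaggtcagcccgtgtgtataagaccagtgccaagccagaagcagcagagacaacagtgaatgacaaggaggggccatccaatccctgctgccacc
PAAF1: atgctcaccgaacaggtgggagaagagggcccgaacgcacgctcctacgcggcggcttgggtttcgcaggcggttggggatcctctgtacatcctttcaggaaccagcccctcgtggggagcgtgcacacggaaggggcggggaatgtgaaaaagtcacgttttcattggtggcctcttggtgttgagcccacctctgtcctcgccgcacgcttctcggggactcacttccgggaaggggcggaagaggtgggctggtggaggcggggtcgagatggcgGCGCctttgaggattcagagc
UCP2: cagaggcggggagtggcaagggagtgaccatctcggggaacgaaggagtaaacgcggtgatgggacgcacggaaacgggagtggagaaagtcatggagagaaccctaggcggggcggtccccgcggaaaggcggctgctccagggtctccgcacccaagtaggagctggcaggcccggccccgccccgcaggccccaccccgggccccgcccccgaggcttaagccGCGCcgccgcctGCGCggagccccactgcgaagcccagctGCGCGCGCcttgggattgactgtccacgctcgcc

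The *PPME1* window held 8 GCGC, all before the start site. The *C2CD3* window (74170953 to 74171252) shared 214 bases with it and held 9, of which 8 were at the same bases as those of *PPME1*. Of 15121 windows of tested genes, 79.7% held at least 1 GCGC, 12.8% held 8 or more and 8.93% held 9 or more, with a median of 3. Among the other members *UCP3* and *DNAJB13* held 0, *PAAF1* 1, *COA4* 2, *PGM2L1* 4, and the windows of *UCP2* 5 and 2. A match is only a run of letters, and binding of SAMD1 was not analysed here.

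*PPME1* was the member with the largest difference. The control replicates had 38945, 40889 and 38146 normalized counts and *SAMD1* KO clones 1 to 3 had 5323, 5358 and 5095. Every clone was far below every control replicate, and the 3 clones lay close to each other at 0.135, 0.136 and 0.130 of the control mean. The mean was 39327 ± 1411 (SD, n = 3) in control and 5259 ± 143 (SD, n = 3) in KO cells, a 7.48-fold lower level and a log2 difference of −2.90 (standard error 0.05 from the limma model). In the control replicates *PPME1* was the 81st, 70th and 84th most abundant of the 20347 genes by normalized count, and in the clones it stood at places 1853, 1740 and 1896. Its share of all normalized counts was 0.0953%, 0.101% and 0.0936% in control and 0.0131%, 0.0137% and 0.0127% in the clones. Genes were tested if their normalized counts averaged 10 or more across the libraries, and 11 of these 12773 genes had a lower log2 difference.

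*C2CD3*, which starts beside *PPME1* on the other strand, had 3822, 4114 and 4011 normalized counts in control and 1998, 2019 and 1919 in the clones. The groups did not overlap, and the clones lay close to each other at 0.502, 0.507 and 0.482 of the control mean. The means were 3982 ± 148 and 1979 ± 53.1 (SD, n = 3 each), a 2.01-fold lower level in KO cells and a log2 difference of −1.01 (standard error 0.05). Both genes of the pair were thus lower in all 3 clones, *PPME1* by more than *C2CD3*. The ratio of *PPME1* to *C2CD3* within a library was 10.2, 9.94 and 9.51 in control and 2.66, 2.65 and 2.66 in the clones. In normalized counts the difference between the means was 34068 for *PPME1* and 2004 for *C2CD3*.

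**Figure D1:**
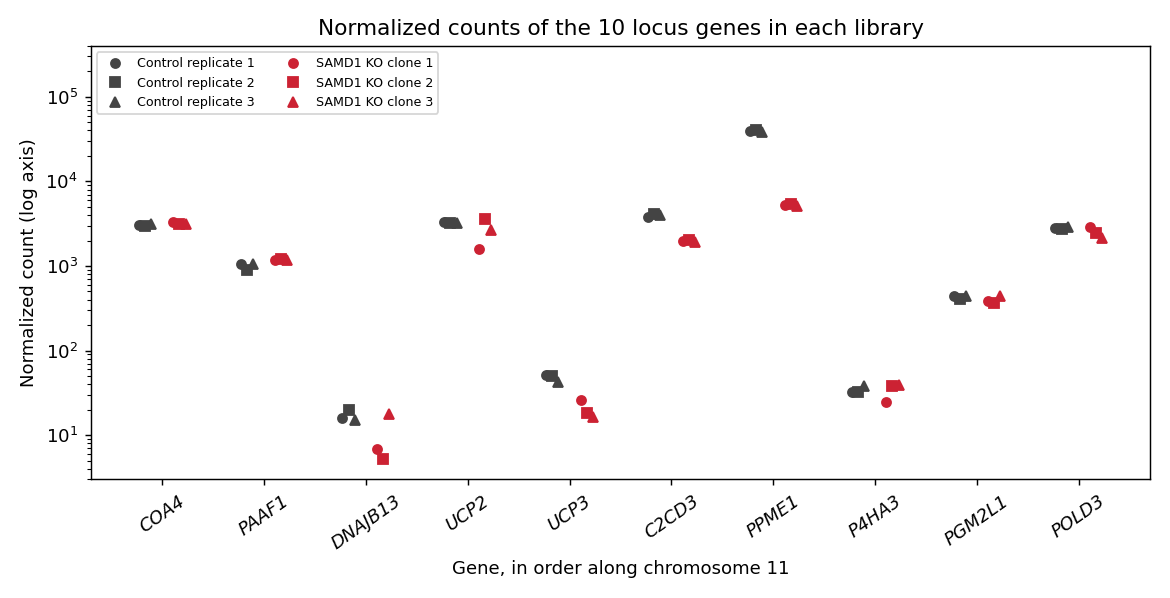
Normalized counts (log axis) of the 10 genes, in order along chromosome 11, with a marker for each of the 3 control replicates (grey) and 3 *SAMD1* KO clones (red). *PPME1* lies between 38146 and 40889 in control and between 5095 and 5358 in the clones, and *C2CD3* and *UCP3* are also lower in every clone.

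*UCP3*, a mitochondrial carrier known mainly from skeletal muscle, was low throughout. It had 51.5, 49.9 and 42.4 normalized counts in control and 25.7, 18.1 and 16.2 in the clones. The groups did not overlap, and clone 1 was the highest of the clones. The means were 47.9 ± 4.86 and 20.01 ± 5.03 (SD, n = 3 each), a log2 difference of −1.24 (standard error 0.25) on the log2(normalized count + 1) scale. With so few reads counting error matters: the exact 95% Poisson interval ran from 29.8 to 58.4 for the lowest control replicate and from 16.8 to 37.7 for the highest clone, and these intervals overlap. Intervals of this kind cover counting error only.

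The range of the 3 clones on the log2 scale, a measure of how alike they were, was 0.07 for *PPME1*, 0.07 for *C2CD3* and 0.64 for *UCP3*. Over the 1003 tested genes called as changed (a log2 fold change beyond 0.5 in either direction and an unadjusted limma p below 0.01), the median range was 0.47. Of these 1003 genes, 27 had a range at or below that of *PPME1* and 29 at or below that of *C2CD3*, each count including the gene itself. Over all tested genes, called or not, the median range was 0.29. *COA4* and *PAAF1*, which were not lower, had ranges of 0.06 and 0.05, so close clones were not particular to *PPME1* and *C2CD3*. The other members ranged from 0.24 for *PGM2L1* to 1.62 for *DNAJB13*. The control replicates differed by 0.10 for *PPME1* and 0.11 for *C2CD3*, so the clones were no further apart than the control replicates.

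**Figure D2:**
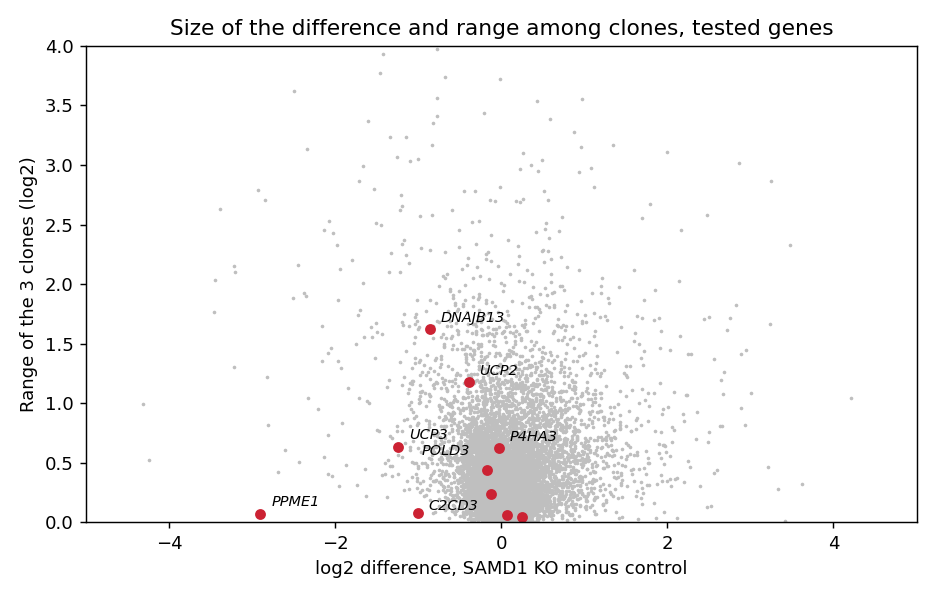
Log2 difference of *SAMD1* KO minus control (x axis) and range of the 3 clones on the log2 scale (y axis) for the tested genes (grey points, 25 genes beyond the axis limits not drawn) and the 10 locus genes (red). *PPME1* and *C2CD3* lie at the bottom left, with a range of 0.07, whereas *UCP2* and *DNAJB13* have ranges of 1.17 and 1.62. *COA4* and *PAAF1*, with differences within 0.5, have smaller ranges of 0.06 and 0.05.

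*UCP2*, the more widely expressed uncoupling protein relative, did not follow *UCP3*. It had 3316, 3182 and 3238 normalized counts in control and 1590.03, 3589.7 and 2641 in the clones. Clone 1 was at 0.490 of the control mean, clone 3 at 0.814, and clone 2 was above every control replicate, so the groups overlapped. The means were 3245 ± 67.4 and 2607 ± 1000.3 (SD, n = 3 each), and the log2 difference was −0.39 (standard error 0.26). Without clone 1 it was −0.08, and without clone 2 it was −0.66. The ratio of *UCP2* to *UCP3* was 64.4, 63.8 and 76.4 in control, 61.8 in clone 1, and 198 and 163 in clones 2 and 3.

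*DNAJB13*, a gene of motile cilia, was near the count minimum. Its normalized counts were 16.0, 19.6 and 14.9 in control and 6.92, 5.18 and 18.0 in the clones. Clones 1 and 2 were below the control replicates and clone 3 lay among them, so the groups overlapped. The log2 difference was −0.86 (standard error 0.46), and it was −1.34 without clone 3 and −0.53 without clone 2. *KCNE3*, a potassium channel subunit that lies between *PGM2L1* and *POLD3* and is not one of the 10, had 3.43, 7.83 and 4.58 normalized counts in control, 0 reads in clones 1 and 2 and 10.8 normalized counts in clone 3. A count of 0 lies under a floor of 3 reads, which was 2.97 normalized counts in clone 1 and 2.59 in clone 2. The exact 95% Poisson intervals of *KCNE3* reached further, to 3.65 and 3.19. By their counts, *DNAJB13* and *KCNE3* were both lowest in clones 1 and 2 and higher in clone 3.

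*COA4* and *PAAF1*, which overlap at their starts, were slightly higher in all clones. *COA4* had 3051, 2994 and 3132 normalized counts in control and 3296, 3155 and 3153 in the clones, a log2 difference of 0.07 (standard error 0.05). *PAAF1* had 1050.1, 905 and 1052 in control and 1172, 1209.5 and 1172 in the clones, a log2 difference of 0.24 (standard error 0.08). In neither gene did the groups overlap, but both differences were under the cut-off of 0.5 and that of *COA4* was close to the range among its control replicates, 0.06.

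On the far side of *PPME1*, *P4HA3* was level. It had 32.0, 32.3 and 37.8 normalized counts in control and 24.7, 38.0 and 38.7 in the clones, with means of 34.0 ± 3.26 and 33.8 ± 7.87 (SD, n = 3 each). Clone 1 was the lowest library, and clones 2 and 3 were above all control replicates. Its log2 difference was −0.03 (standard error 0.25) and 0.17 without clone 1. Although its extent overlaps that of *PPME1* over 18903 bases, its count was at most 38.7 both where *PPME1* was at about 39327 and where it was at about 5259 normalized counts.

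*PGM2L1*, the next gene, had 443.8, 403 and 446 normalized counts in control and 384, 369.8 and 436 in the clones. Clone 3 lay among the control replicates and clones 1 and 2 below them, and the log2 difference was −0.12 (standard error 0.10), or −0.07 without clone 2 and −0.19 without clone 3. *POLD3*, at the end of the run, had 2813, 2758 and 2865 in control and 2899, 2469 and 2137 in the clones. Clone 1 was above and clones 2 and 3 were below the control replicates, with a log2 difference of −0.18 (standard error 0.11), which was −0.29 without clone 1 and −0.07 without clone 3. *LIPT2*, which encodes a lipoyl transferase, is not one of the 10 and starts 126 bases from *POLD3* on the other strand. Its normalized counts were 106, 91.0 and 111 in control and 96.9, 105 and 60.3 in the clones, so clone 3 was the lowest library for both genes of this pair.

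Of the 10 genes, all passed the count minimum. In 5 the groups did not overlap, 3 of them lower (*UCP3*, *C2CD3*, *PPME1*) and 2 higher (*COA4*, *PAAF1*) in KO cells. Over all tested genes 37.8% had no overlap, 18.6% lower and 19.2% higher. A level lower by more than 0.5 on the log2 scale, without overlap, was found in 3 of the 10 and in 3.15% of all tested genes. Because this contrast chose the run, nothing is read from these counts. The values inside and outside its edges were close: *COA4* at 0.07 and *POLD3* at −0.18 were the outermost members, and *MRPL48* at −0.06 and *RNF169* at −0.27 were the nearest tested genes beyond them. The median log2 difference was −0.29 over the 10 and −0.01 over all tested genes.

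**Figure D3:**
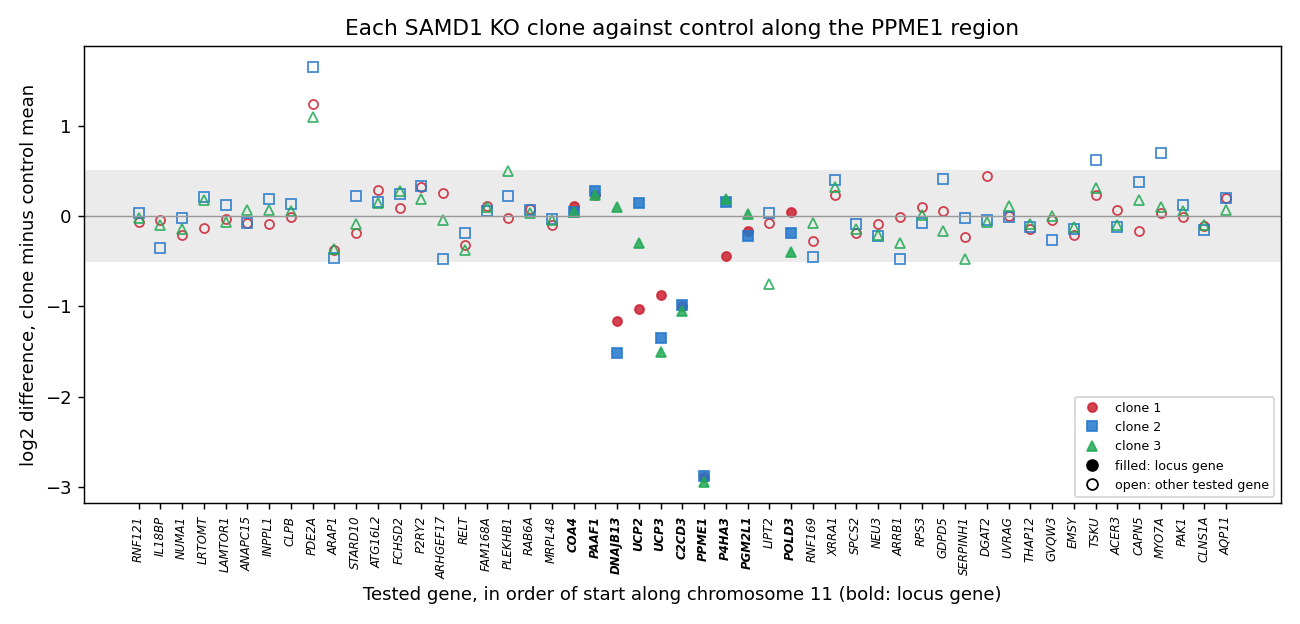
Log2 difference of each *SAMD1* KO clone from the control mean (y axis) for tested genes in order of their start along chromosome 11 (x axis), with the locus genes filled and the other tested genes, 20 on each side and *LIPT2*, open. The grey band marks differences within 0.5, and the 3 clones coincide near −2.90 at *PPME1* and near −1.01 at *C2CD3* while they spread at *DNAJB13*, *UCP2* and *UCP3*.

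The next question was whether the difference extends beyond the run. These flanking genes were compared with limma over all tested genes, with Benjamini-Hochberg adjustment. Of the 20 tested genes nearest on each side, 1 of 40 was called higher and 0 were called lower, against 7.85% called of all tested genes (5.77% higher and 2.08% lower). At an unadjusted limma p below 0.05 there were 11 of the 40, against 29.6% of all tested genes. The median log2 fold change was 0.03 on the centromeric and −0.02 on the telomeric side, and the medians over the 40 genes in clones 1, 2 and 3 were −0.03, 0.01 and −0.01. The called gene was *PDE2A*, a cyclic nucleotide phosphodiesterase, which rose from 120, 174 and 135 to 334, 447 and 304 normalized counts (log2 fold change 1.33, standard error 0.19, limma adjusted p = 0.00647).

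Of the 5 nearest tested genes on each side, 0 of 10 were called and 0 had a limma adjusted p below 0.05 (4 had an unadjusted p below 0.05), with log2 fold changes from −0.29 to 0.32. On the centromeric side *MRPL48*, of the mitochondrial ribosome, was at −0.06, *RAB6A*, a Golgi GTPase, at 0.06, *PLEKHB1* at 0.24, *FAM168A* at 0.09 and *RELT*, a member of the TNF receptor family, at −0.29 (limma adjusted p = 0.0575). On the telomeric side *RNF169*, a ubiquitin ligase of the DNA damage response, was at −0.27, *XRRA1* at 0.32, *SPCS2*, of the signal peptidase complex, at −0.14, *NEU3*, a sialidase, at −0.17 and *ARRB1*, a beta-arrestin, at −0.26. *ARAP1*, which was chosen after its values were seen, was the other gene of the 40 with an adjusted p below 0.05, and fell from 5467 ± 198 to 4134 ± 164 (log2 fold change −0.40, limma adjusted p = 0.00495). Its log2 fold change was the lowest of the 40.

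Ratios within a library give the same comparison without any scaling. The ratio of *PPME1* to *POLD3* was 13.8, 14.8 and 13.3 in control and 1.84, 2.17 and 2.38 in the clones. That of *PPME1* to *COA4* was 12.8, 13.7 and 12.2 in control and 1.62, 1.70 and 1.62 in the clones. *C2CD3* to *POLD3* gave 1.36, 1.49 and 1.40 in control and 0.689, 0.818 and 0.898 in the clones. In each of these ratios the clones lay below the control replicates, so *PPME1* was also lower relative to *COA4* and *POLD3*, at the ends of the run, and *C2CD3* relative to *POLD3*.

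**Figure D4:**
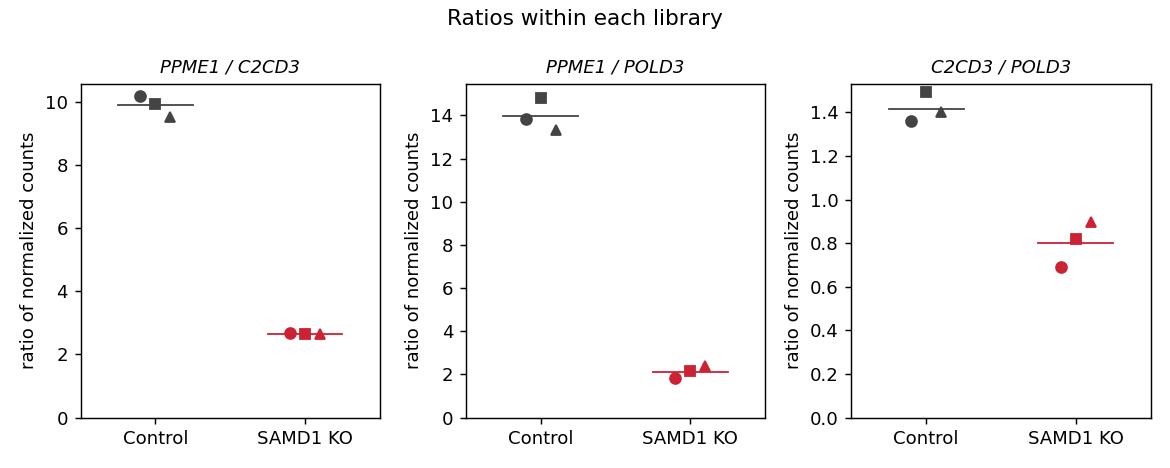
Ratios of normalized counts within each library for *PPME1* to *C2CD3*, *PPME1* to *POLD3* and *C2CD3* to *POLD3*, with the 3 control replicates (grey) and 3 *SAMD1* KO clones (red) as points and the group means as lines. The clones fall below all control replicates in each panel, and for *PPME1* to *C2CD3* they coincide at 2.65 to 2.66.

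Levels were compared between genes as normalized counts per kb of merged exon. Merged exon is the union of all annotated exons of a gene, 27209 bases for *C2CD3*, 7922 for *PAAF1* and 5501 for *POLD3*. It is not the length of the transcripts made in these cells, so the order of the genes depends on the annotation. In control cells *PPME1* was the highest member with 5075 ± 182 per kb, followed by *COA4* with 1417 ± 32.1, *UCP2* with 1172 ± 24.4, *POLD3* with 511 ± 9.70, *C2CD3* with 146 ± 5.46 and *PAAF1* with 127 ± 10.6 (SD, n = 3 each). *PGM2L1* with 49.1 ± 2.74, *UCP3* with 14.4 ± 1.46, *P4HA3* with 8.53 ± 0.817 and *DNAJB13* with 6.08 ± 0.882 per kb were the low members, and no neighbours in this order had overlapping control replicates. In the clones *PPME1*, with 679 ± 18.5 per kb, stood behind *COA4* (1483 ± 37.9) and *UCP2* (942 ± 361), and its values overlapped those of *UCP2*. *PAAF1*, with 150 ± 2.74 per kb, then stood above *C2CD3*, with 72.7 ± 1.95. By normalized counts not divided by length, *C2CD3* was still above *PAAF1* in the clones (means of 1979 and 1184). *P4HA3*, *UCP3* and *DNAJB13* followed in that order at the bottom, each overlapping the next.

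**Figure D5:**
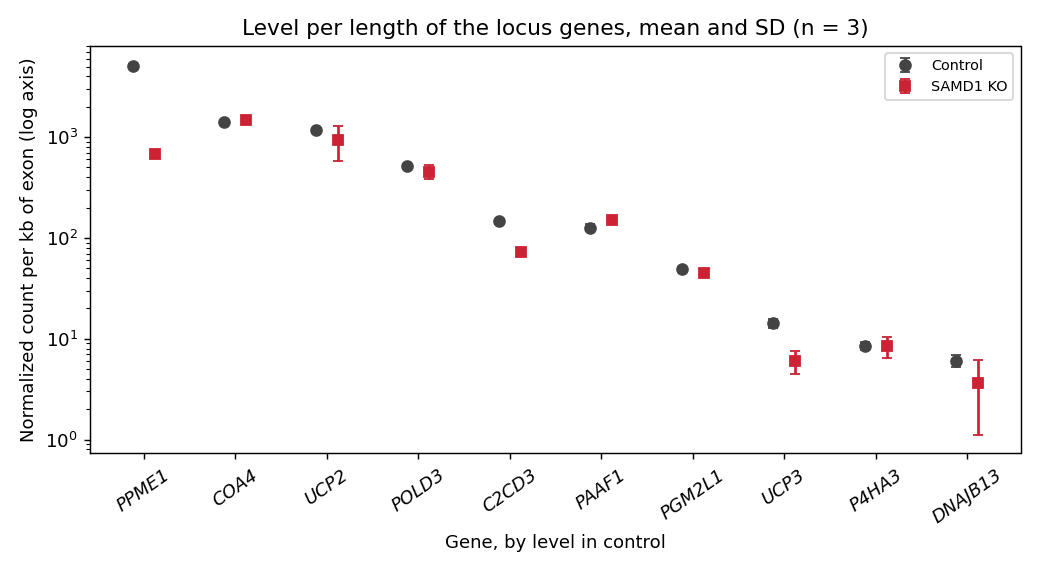
Normalized counts per kb of merged exon (log axis) for the 10 genes, ordered by their level in control, as mean and SD of 3 control replicates (grey) and 3 *SAMD1* KO clones (red). *PPME1* is the highest in control at 5075 and lies at 679 in KO cells, below *COA4*.

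Genes whose products work with those of the run, or resemble them, were compared in 9 lists. Of 119 listed genes 113 were tested, and 2 were called higher and 1 lower, against 5.77% and 2.08% of all tested genes. The median log2 fold change was −0.05 over these 113, beside −0.01 over all tested genes. In the list of PP2A subunits and modifiers, 0 of 25 were called (1 higher and 8 lower at an unadjusted limma p below 0.05, which 29.6% of all tested genes passed). *LCMT1*, the methyltransferase that PPME1 opposes, had 792 ± 44.1 normalized counts in control and 823 ± 60.0 in the clones (SD, n = 3 each), and its log2 fold change was 0.05 (limma adjusted p = 0.709). *PPP2R2C*, a regulatory B subunit, rose from 967 ± 39.6 to 1361 ± 89.0, a log2 fold change of 0.49 just under the cut-off (limma adjusted p = 0.00696). *PPP2R1B*, a scaffold subunit chosen after its values were seen, fell from 3580 ± 114 to 3045 ± 132 (log2 fold change −0.23, limma adjusted p = 0.037). The genes of the catalytic subunit, *PPP2CA* and *PPP2CB*, also named after their values were seen, were at −0.37 and −0.16 (limma adjusted p = 0.138 and 0.0771).

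The 3 called genes all stood in the list of collagen hydroxylation and folding, the process of *P4HA3*, where 14 genes were tested. *P3H2*, a prolyl 3-hydroxylase, rose from 319, 280 and 337 to 977, 765 and 838 normalized counts (log2 fold change 1.46, standard error 0.12, limma adjusted p = 0.000777). *P3H3*, of the same family, rose from 519 ± 27.9 to 833 ± 171 (log2 fold change 0.66, limma adjusted p = 0.0272). Without control replicate 1 or control replicate 3 *P3H3* was no longer called. Its limma adjusted p, which does not enter the call, was 0.121 and 0.115 in these fits. *PLOD2*, a lysyl hydroxylase, fell from 29299, 28198 and 29096 to 15983, 10279 and 18282, a mean of 0.514 of control (limma adjusted p = 0.0169). Its clones varied more than its control replicates, and the groups did not overlap.

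The other 7 lists had no called gene, and the counts at an unadjusted limma p below 0.05 are given with them, to be read beside the 29.6% of all tested genes that passed it. Of 17 centriole and distal appendage genes, partners of *C2CD3*, 6 were higher and 0 lower at that p, with *IFT88*, a ciliary transport protein, at a log2 fold change of 0.47 (limma adjusted p = 0.0178). Among 13 genes of DNA polymerase delta and its clamp 1 was higher and 1 lower, and *FEN1*, the flap endonuclease, was at −0.32 (adjusted p = 0.0657). The 20 tested cytochrome c oxidase assembly genes held 1 that was higher, *COA5* at 0.20 (limma adjusted p = 0.0913). The 6 phosphohexomutases held 1 higher and 1 lower, with *PMM1* at 0.32 (limma adjusted p = 0.0833), and the 4 tested radial spoke genes held 1 higher, *RSPH1* at 0.97 (limma adjusted p = 0.102). None of the 9 proteasome genes or of the 5 tested carriers passed that p, and their smallest p belonged to *PSMD10* (−0.13, limma adjusted p = 0.202) and *SLC25A27* (0.27, limma adjusted p = 0.252). *UCP1*, the brown fat member of the uncoupling family, had 0 reads in every library.

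The pattern of *PPME1* over the 6 libraries was compared with that of the 11452 other tested genes whose normalized counts averaged 50 or more, by Pearson's r of log2(normalized count + 1). With 2 groups so far apart, r mainly reflects a clean separation of the groups, and it is given as a description. The 5 genes most like *PPME1* were *LIMCH1* (r = 0.9987), *C2CD3* (0.9982), *C18orf25* (0.9976), *FSTL1* (0.9973) and *LIMK2* (0.9972), all lower in KO cells. *C2CD3* therefore ranked 2nd by this measure, while *POLD3*, *PGM2L1* and *UCP2* had r of 0.582, 0.556 and 0.497, and *COA4* and *PAAF1* had −0.762 and −0.866. The 5 genes with the most opposite pattern were *SPHK1* (r = −0.9995), *CDH2* (−0.9993), *GSTA4* (−0.9987), *GALNT16* (−0.9987) and *SLC4A4* (−0.9986), of which *CDH2* encodes N-cadherin and *SPHK1* a sphingosine kinase. *LIMCH1*, which encodes an actin-binding protein, had 7030.4 ± 55.8 normalized counts in control and 4526 ± 56.1 in the clones (SD over 3 libraries), and *SPHK1* had 308 ± 9.92 and 967 ± 10.8.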

How the data were processed

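RNA of 3 control and 3 *SAMD1* KO libraries of PaTu8988t cells, prepared with a stranded mRNA kit, was analysed. For alignment the authors used RNA-STAR with the GenCode 43 transcriptome (hg38 in the submitters' processing notes). They counted reads per gene (the notes name featureCounts) and divided each library by a DESeq2 size factor. The deposited signal is therefore a normalized count per gene symbol, and 100% of the values of each library were whole multiples of 1 step (within 0.01 reads). All 6 per-sample columns were used (0 unused). A second deposited table holds the authors' own comparison, with fold changes and p-values, and was not used.

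Groups were compared with limma 3.58.1 (eBayes with a mean-variance trend, R 4.3.3). The scale was log2(normalized count + 1), one that understates changes of low genes, and the test covered 12773 genes averaging 10 or more. A gene was called beyond a log2 fold change of 0.5 with an unadjusted p below 0.01, the study's cut-off, and p-values were adjusted by Benjamini-Hochberg across every tested gene. All tests were two-sided. Nothing states that the control replicates came from separate cultures, so p-values may measure technical spread there. The members and lists were chosen with earlier results of these data known, and limma p-values of the members are not given. The genes named are the members, other genes between *COA4* and *POLD3*, *SAMD1*, the 5 nearest flanking genes on each side and called ones among 20, called or smallest-p genes of each partner list, *LCMT1*, and the 5 genes with the highest and lowest r with *PPME1*. *CPAP* was matched through its older symbol *CENPJ*. Positions are from GENCODE 44 and promoter windows from RefSeq.

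Each choice was also varied: the pseudocount (0.1 or 10), the filter (none, or an average of 50), the scaling (75th percentile), a block for the replicate number, omission of each library, an adjusted p below 0.05 in the call, and 10 or 40 flanking genes on each side. edgeR 4.0.16 (quasi-likelihood) and DESeq2 1.42.0 were run on recovered reads of 5 libraries, a choice made after the data were seen. The step of clone 1, 0.989, lies too close to 1 to be told from rounding by the check used, so this library was left out of count tests. The read numbers, floor and Poisson intervals given for clone 1 nevertheless took this step as 1 read. On simulated data for this comparison (12773 genes, 200 of them changed 2-fold), limma recovered 185, edgeR 185 and DESeq2 182 of the 200, and called 44, 51 and 34 unchanged genes. The simulation gave both groups the same dispersion for a gene. In the real libraries some genes, such as *UCP2* and *PLOD2*, varied more among the clones, and these numbers need not hold for them. Tables and figures were made in Python 3.11.15 (pandas 2.3.3, numpy 2.4.6, SciPy 1.17.1).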

Additional observations from a re-analysis of the deposited data

How the results depend on the processing

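Under the 14 alternatives the log2 difference ran from −2.92 to −2.87 for *PPME1* and from −1.04 to −0.98 for *C2CD3*. *UCP3* ran from −1.48 to −0.96, the last with a pseudocount of 10, which was the one value of the 10 genes to move by more than the replicate spread. *P4HA3* changed sign in 4 of 13. *DNAJB13*, *UCP3* and *P4HA3* could not be fitted with a mean of at least 50. With each library left out, the flanking genes called stayed at 1 higher and 0 lower, and the partner genes at 1 to 3 higher and 1 to 2 lower (1 higher without control replicate 1 or 3, 2 lower without clone 3). Of the 10 nearest tested genes on each side 0 were called. Of the 40 nearest on each side 6 were called higher and 0 lower, against 5.77% and 2.08% of all tested genes. The 6 were *PDE2A*, *ANO1*, *MYEOV*, *CPT1A*, *GAB2* and *TENM4*, of which 5 were named after their values were seen. Over all tested genes, leaving out 1 library gave 568 to 862 genes called higher and 180 to 370 lower, where all 6 gave 737 and 266. With the replicate number as a block, there were 725 higher and 259 lower calls. Under this block the flanking calls (1 higher, 0 lower) and partner calls (2 higher, 1 lower) were equal in number to those without it. Same-numbered libraries deviated from their group means with small correlations of 0.0391, 0.134 and 0.0318. Control replicates 1 and 2 nevertheless correlated best with the clone of the same number, and control replicate 3 did not. With 3 libraries a group, these values do not decide whether the numbers pair the libraries. With the 40 flanking and 113 partner genes, edgeR and DESeq2 on 5 libraries called 1 flanking gene higher and 0 lower and 3 partner genes higher and 1 lower. The same tools on all 6 libraries, as planned, were not run. Depth limits *DNAJB13*, *UCP3*, *P4HA3* and *KCNE3*, whose libraries held at most 51 reads each.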
